A study of Mus musculus with 96 samples.

Results

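The 33 genes described here mark the oligodendrocyte lineage, the glia that form myelin in the brain, and were taken by name from the rows of the read-count table: 33 of 48795 genes. They comprise 13 genes of myelin and myelin-associated proteins (Mbp, Mog, Mag, Mobp, Cnp, Cldn11, Mal, Opalin, Ermn, Plekhb1, Hapln2, Tspan2, Ppp1r14a), 6 of enzymes and carriers (Ugt8a, Fa2h, Aspa, Trf, Car2, Ndrg1), 4 of gap junctions and receptors (Gjc3, Gjb1, Gpr37, Lpar1), 6 of transcription factors (Sox10, Sox8, Myrf, Nkx6-2, Olig1, Olig2), 2 of the differentiating stage (Enpp6, Bcas1) and 2 of precursors (Pdgfra, Cspg4). All 33 were found, on 15 chromosomes, and all 33 passed the filter on low counts in both tissues.

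Total RNA of striatum and cerebral cortex was sequenced from 48 C57BL/6 mice aged 6 months. They came from a cross of Q140 mice, in which Htt (mutated in Huntington's disease) carries an expanded CAG repeat, with a line that lacks Pms1, a mismatch repair gene of the MutL family. The 6 genotypes were heterozygous Q140 with no Pms1 (Q140 Pms1 null), heterozygous Q140 with a single Pms1 copy (Q140 Pms1 het), heterozygous Q140 with both Pms1 copies (Q140), no knock-in with no Pms1 (Pms1 null), no knock-in with a single Pms1 copy (Pms1 het), and wild type (WT). Each genotype had 8 animals (4 female, 4 male), and a library was made from either tissue of every animal, 96 libraries in all. Every knock-in animal is heterozygous, so its cells also hold a normal Htt allele, and the RNA was read in bulk, so neurons and all glia were read together.

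Oligodendrocytes arise from precursors that carry the receptor Pdgfra and the proteoglycan Cspg4 (NG2). The transcription factors Olig1, Olig2 and Sox10 set the lineage, and Myrf, which Sox10 induces, switches on the genes of myelin. Enpp6 and Bcas1 mark the short stage at which a precursor becomes a myelin-forming cell. Striatum is crossed by bundles of myelinated cortical axons, which makes white matter a larger part of it than of cortical grey matter.

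The libraries held 27993751 to 56364535 counted reads. In striatum, Pms1 itself lay between 3.05 and 4.44 CPM (counts relative to the library total, scaled by the trimmed mean of M-values) with a median of 4.08 in 8 Pms1 null libraries, against 4.86 to 5.82 with a median of 5.33 in 8 WT libraries; the groups did not overlap, and edgeR gave a log2 fold change of -0.43 ± 0.08 (SE, adjusted p = 0.000698). In cortex it differed by -0.10 ± 0.08 (adjusted p = 0.467). The labels do not say which part of Pms1 is deleted, so reads that remain over the gene do not test the deletion. The markers of mature oligodendrocytes were all present: none of the 8, among them Mbp, Mog and Cnp, was at 0 in any group, and their summed level lay between 4864 and 7196 CPM in striatum and between 1289 and 2271 CPM in cortex. Markers of Schwann cells, which myelinate peripheral nerve, summed to at most 4.39 CPM in striatum. Exons of Bcas1, Cnp, Ermn, Ndrg1, Nkx6-2, Olig1, Pdgfra, Sox8 and Tspan2 overlap those of a gene on the opposite strand, and exons of Mobp, Pdgfra and Trf those of another gene on the same strand; the sources used here do not give the strand setting of the counting, so reads of such pairs may be shared. In the mean of the 33 genes, 2 libraries of each tissue lay more than 2.2 SD from their genotype and sex: Q140 replicate 1 and Q140 Pms1 het replicate 2 were high in striatum, and in cortex Q140 Pms1 het replicate 3 was low and Pms1 het replicate 4 high. One feature of the design touches every comparison with Pms1 null animals: the first number of the animal code in the labels was 16 or more (late codes) in all 8 Pms1 null and all 8 Q140 Pms1 null animals, against 3 Q140, 1 Q140 Pms1 het, 0 Pms1 het and 2 WT animals. The sources used here do not say what that number stands for.

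The sequence before the start site was looked up for the genes, because many of them moved together between animals. RefSeq promoter windows on GRCm38.p6, 250 bases before to 50 bases after a start site, were held for 24 of the 33 genes (33 windows); Sox10, Bcas1, Fa2h, Olig1, Mbp, Ndrg1, Trf, Myrf and Car2 had none. Each window was searched on both strands for ACAAAG (a SOX10-type sequence), CTGGCAC or CTGGTAC (MYRF-type) and CAGCTG or CATCTG (an E-box of the kind that OLIG proteins bind). The SOX10-type sequence was in at least 1 window of 8 of 24 genes (33.3%), against 21.0% of all 27025 genes with a window. The MYRF-type sequence was in 6 of 24 (25.0%), against 8.10%, and the E-box in 10 of 24 (41.7%), against 33.4%. Counted by window, since some genes have several, the shares were 33.3% against 18.7%, 21.2% against 7.10% and 30.3% against 30.6% for the SOX10-type sequence, the MYRF-type sequence and the E-box. A match describes letters in a window and nothing about binding. The windows of 6 genes are given 5′ to 3′ in the direction of the gene, with matches in capitals. Those of Cnp, Mag and Mog come first because these are myelin protein genes that were lower in Pms1 null cortex and hold a MYRF-type match, then that of Mobp, which has the most SOX10-type matches, and then those of Enpp6 and Cldn11, which hold none of the 3 and changed in opposite directions in knock-in striatum. No match in these windows overlaps another.
Cnp, chr11:100574689-100574988, plus strand: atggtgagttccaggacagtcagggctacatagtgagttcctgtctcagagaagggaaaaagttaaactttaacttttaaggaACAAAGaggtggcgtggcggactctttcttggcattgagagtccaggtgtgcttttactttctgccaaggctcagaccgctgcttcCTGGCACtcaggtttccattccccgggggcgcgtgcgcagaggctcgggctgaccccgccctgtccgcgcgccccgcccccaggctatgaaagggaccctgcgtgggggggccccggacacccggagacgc
Mag, chr7:30914814-30915113, minus strand: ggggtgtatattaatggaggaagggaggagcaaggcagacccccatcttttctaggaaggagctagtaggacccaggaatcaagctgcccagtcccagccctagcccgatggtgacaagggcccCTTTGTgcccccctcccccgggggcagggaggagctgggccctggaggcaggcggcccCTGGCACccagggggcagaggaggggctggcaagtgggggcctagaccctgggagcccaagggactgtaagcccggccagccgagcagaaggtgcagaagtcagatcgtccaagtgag
Mog, chr17:37023349-37023648, minus strand: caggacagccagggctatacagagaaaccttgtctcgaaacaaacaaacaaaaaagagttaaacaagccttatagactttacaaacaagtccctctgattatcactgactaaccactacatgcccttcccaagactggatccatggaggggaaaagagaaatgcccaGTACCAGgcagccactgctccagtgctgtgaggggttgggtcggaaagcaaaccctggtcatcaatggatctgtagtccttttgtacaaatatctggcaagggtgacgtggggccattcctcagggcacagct
Mobp, chr9:120149492-120149791, plus strand: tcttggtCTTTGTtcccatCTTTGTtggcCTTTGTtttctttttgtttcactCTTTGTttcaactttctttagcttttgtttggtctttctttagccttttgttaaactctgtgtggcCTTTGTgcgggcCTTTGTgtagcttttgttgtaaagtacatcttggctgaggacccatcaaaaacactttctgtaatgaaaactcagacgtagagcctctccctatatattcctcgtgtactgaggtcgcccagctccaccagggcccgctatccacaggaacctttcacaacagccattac
Enpp6, chr8:46986637-46986936, plus strand: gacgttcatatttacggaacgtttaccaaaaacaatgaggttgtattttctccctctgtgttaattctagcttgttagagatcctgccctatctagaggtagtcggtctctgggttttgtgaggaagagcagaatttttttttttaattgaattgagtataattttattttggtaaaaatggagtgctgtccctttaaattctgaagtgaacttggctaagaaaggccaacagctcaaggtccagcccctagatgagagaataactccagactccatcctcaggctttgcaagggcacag
Cldn11, chr3:31149670-31149969, plus strand: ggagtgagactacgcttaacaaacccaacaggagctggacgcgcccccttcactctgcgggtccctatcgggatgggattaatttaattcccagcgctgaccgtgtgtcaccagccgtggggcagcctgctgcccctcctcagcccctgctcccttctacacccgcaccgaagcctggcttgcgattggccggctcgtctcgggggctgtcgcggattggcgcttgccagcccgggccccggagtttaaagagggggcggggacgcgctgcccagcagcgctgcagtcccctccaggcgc
Positions of the first base of a match are counted from the start site, negative before it. In Cnp the SOX10-type match began at -167 and the MYRF-type match at -81. Mag had the same pair at -126 and -68, the first on the opposite strand, and Mog a MYRF-type match on the opposite strand at -83. Mobp had 6 SOX10-type matches, all on the opposite strand, between -243 and -120.

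All 33 genes were higher in striatum than in cortex. In the test of 48 striata against 48 cortices, 33 of 33 passed upward, where 46.1% of 19723 tested genes were higher and 89.4% were called in either direction; in the 8 WT animals alone it was again 33 of 33, where 38.5% were higher and 76.0% called. The median log2 difference of the 33 genes was 1.37, against 0.02 over all genes tested. For 29 genes every striatum library lay above every cortex library, and the other 4 were Olig2, Car2, Pdgfra and Cspg4. How many of all genes tested separate in this way was not counted. The main fit over both tissues has no term for the animal, so its SEs and p-values leave out the pairing of the tissues. With the animal as a replicate block, 33 of 33 again passed in either test. In the bulk tissue used here, more cells of the lineage and more RNA per cell cannot be told apart.

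The order of levels within a tissue was read from the deposited FPKM (fragments relative to gene length and library total), which allow for gene length. Mbp, a main structural protein of compact myelin, was the most abundant, at 337 ± 33.7 FPKM in striatum and 110 ± 12.2 FPKM in cortex (SD, n = 48 each). Mobp, a basic protein of the major dense line, followed in striatum at 151 ± 20.5 FPKM and was in place 3 in cortex at 37.1 ± 5.34 FPKM. Cnp, Mal, Plekhb1 and Cldn11 came next in striatum, from 91.7 ± 9.24 down to 74.2 ± 7.98 FPKM, and each of them lay within 1 SD of its neighbour in that order. In cortex Car2 (carbonic anhydrase, also made by other cells) was second at 41.9 ± 3.07 FPKM, within 1 SD of Mobp. Pdgfra, at 5.12 ± 0.327 FPKM, was among the 4 lowest in striatum with Aspa, Cspg4 and Enpp6, and was in place 24 of 33 in cortex at 4.28 ± 0.335 FPKM. Enpp6 was last in both tissues, at 1.99 ± 0.363 FPKM in striatum and 0.445 ± 0.0959 FPKM in cortex. The plot of FPKM by tissue shows that the gap between the tissues was wide for the myelin genes and narrow for the precursor genes.

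**Figure D1:**
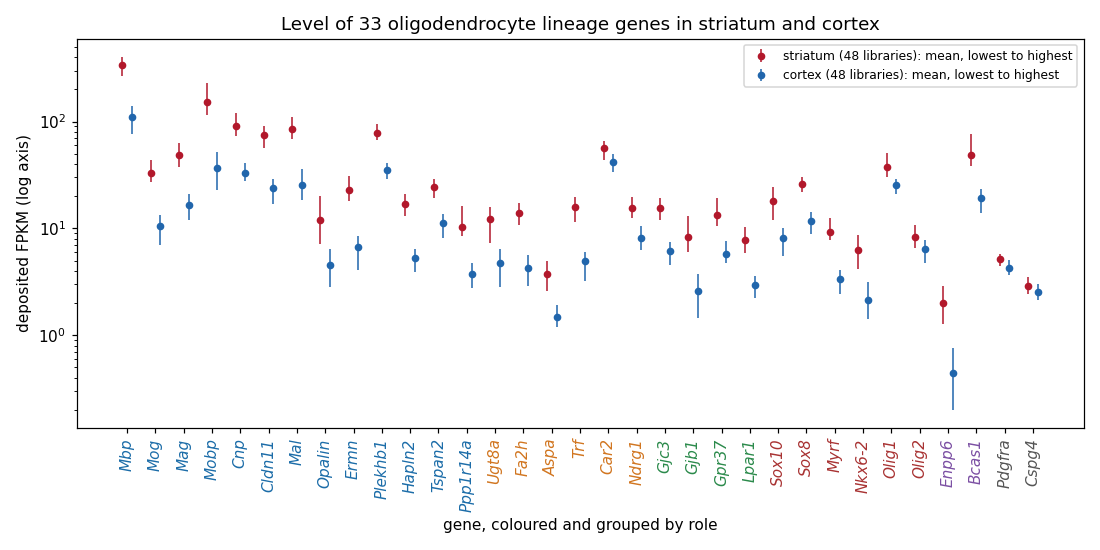
Deposited FPKM (log axis) of the 33 genes in 48 striatum and 48 cortex libraries, grouped by role; points are means and lines run from the lowest to the highest library. Mbp is highest in both tissues (337 FPKM in striatum, 110 FPKM in cortex) and Enpp6 lowest, and the ranges of the tissues overlap only for a few genes such as Pdgfra and Cspg4.

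The size of the tissue difference varied widely among the genes. The 5 genes with the largest difference were Enpp6 (a choline phosphodiesterase of newly forming oligodendrocytes), Mobp, Ermn (a cytoskeletal protein of myelinating processes), Mal (a raft protein of the myelin membrane) and Fa2h (which hydroxylates the fatty acids of myelin lipids). Enpp6 had 8.11 to 17.8 CPM with a median of 12.5 in 48 striata, against 1.31 to 4.98 CPM with a median of 2.85 in 48 cortices, a log2 difference of 2.12 ± 0.05 (SE, adjusted p = 6.56e-61). Mobp differed by 1.99 ± 0.04, Ermn by 1.72 ± 0.03, Mal by 1.71 ± 0.03 and Fa2h by 1.68 ± 0.03. Within an animal the level of Enpp6 was between 2.75 and 8.9 times as high in striatum as in cortex, with a median of 4.39, and that of Mbp between 2.27 and 4.32 times, with a median of 3.05.

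The 5 smallest differences were those of the precursor genes Cspg4 and Pdgfra and of Olig2, Car2 and Olig1. Cspg4 had 19.7 to 26.9 CPM with a median of 23.0 in striatum, against 17.8 to 24.3 CPM with a median of 20.3 in cortex, a log2 difference of 0.15 ± 0.02 (adjusted p = 5.57e-10). The ranges overlap along most of their length. Pdgfra differed by 0.23 ± 0.02, Olig2 by 0.37 ± 0.03, Car2 by 0.40 ± 0.02 and Olig1 by 0.53 ± 0.02. In 48 of 48 animals 31 of the genes were higher in striatum than in that animal's cortex, and Pdgfra was so in 46 and Cspg4 in 44. The share of all genes that were higher in every animal was not counted either. Of the other transcription factors, Sox10 differed by 1.13 ± 0.03, Myrf by 1.44 ± 0.03 and Nkx6-2 by 1.52 ± 0.04. Olig1 and Olig2 lie 41095 bases apart on chromosome 16.

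Other genes of the lineage, from lists of genes that are not among the 33, did not all follow. Of 39 other genes of myelin and mature oligodendrocytes, 32 were higher in striatum and 7 lower. The protease Klk6 (log2 difference 4.00), the hedgehog-binding Hhip (2.40) and the ephrin Efnb3 (2.23) differed most upward, and Cdkn1c (-1.35), Pex5l (-0.94) and Edil3 (-0.60) most downward. Of 29 genes of precursors and committed precursors 14 were higher and 14 lower; Cacng4 (3.07), Kif19a (1.33) and Vcan (1.15) had the largest differences upward, and Rras2 (-2.51), Dscam (-2.12) and Sox5 (-2.05) the largest downward. Of 25 genes of myelin lipid synthesis 10 were higher (Plpp2, Elovl7 and Cers2 by 1.48, 0.78 and 0.72) and 14 lower, among them Hmgcs1 (-1.10). Of 25 growth factors and receptors that act on the lineage 11 were higher (Rxrg 6.94, Erbb3 1.30, Jag1 0.91) and 13 lower (Bdnf -6.49, Rtn4r -6.15, Igf1 -2.64). Of 14 partners of myelin at the node and paranode 7 were higher (Vcan 1.15, Cntnap2 0.54, Ank3 0.49) and 7 lower (Kcna2 -1.05, Scn8a -0.68, Tnr -0.57). Many genes of the last 4 lists are also made by neurons or astrocytes. Over all genes tested 46.1% were higher and 43.3% lower, so the even splits of the precursor and node lists are close to those shares.

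Knock-in animals were compared with animals without the knock-in over the 3 Pms1 genotypes, 24 against 24 in each tissue. In striatum the 33 genes split: 10 were lower and 5 higher in knock-in animals, where 20.0% of 18890 tested genes were lower and 22.5% higher (42.5% called in all). The count of 15 of 33 is thus close to the share over all genes. The median log2 change was -0.01, against 0.01 over all genes. For all 33 the ranges of the groups overlapped.

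The 10 genes that fell were 4 of myelin proteins, 4 of enzymes and carriers, a connexin gene and a transcription factor gene. Car2 fell most, to 103 to 144 CPM with a median of 127 in knock-in striatum, against 121 to 164 CPM with a median of 149 without the knock-in, a log2 change of -0.22 ± 0.03 (SE, edgeR adjusted p = 3.99e-08). Mal had 185 to 296 CPM with a median of 215 in knock-in striatum, against 209.9 to 303 CPM with a median of 247 without it (-0.19 ± 0.04, adjusted p = 0.000565). Although medians moved, the highest knock-in library of Mal lay close to the highest library without the knock-in. Cldn11, the claudin that seals the layers of myelin, had 104 to 162 CPM with a median of 129, against 119 to 172 CPM with a median of 145 (-0.16 ± 0.04, adjusted p = 0.000873). Tspan2, a tetraspanin of myelin, had 89.7 to 131 CPM with a median of 111, against 105 to 138 CPM with a median of 125 (-0.16 ± 0.04, adjusted p = 0.000242). For both, the lowest knock-in libraries lay below every library without the knock-in, and the ranges overlapped above that. Mobp changed by -0.17 ± 0.05, and of the enzymes of myelin lipids Ugt8a, which makes galactosylceramide, changed by -0.18 ± 0.05 and Fa2h by -0.16 ± 0.04 (adjusted p = 0.00793, 0.00245 and 0.00122). Aspa, which breaks down N-acetylaspartate, changed by -0.10 ± 0.04 (adjusted p = 0.0398), the connexin gene Gjc3 by -0.10 ± 0.04 (adjusted p = 0.0206) and the transcription factor Sox8 by -0.09 ± 0.03 (adjusted p = 0.0128).

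The 5 that rose were Enpp6, Olig1, Gjb1, Ppp1r14a and Lpar1. Enpp6 had 10.6 to 17.8 CPM with a median of 13.7 in knock-in striatum, against 8.11 to 13.9 CPM with a median of 11.5 without the knock-in, a log2 change of 0.26 ± 0.05 (adjusted p = 4.9e-05). The highest knock-in libraries lay above every library without the knock-in, and the lower parts of the ranges overlapped. Olig1 had 73.6 to 104 CPM with a median of 81.5, against 64.9 to 90.1 CPM with a median of 75.9 (0.14 ± 0.03, adjusted p = 0.000363). Gjb1, the connexin 32 gene, changed by 0.14 ± 0.06 (adjusted p = 0.0446), Ppp1r14a, an inhibitor of myosin phosphatase, by 0.11 ± 0.04 (adjusted p = 0.0271) and Lpar1, a lysophosphatidic acid receptor, by 0.10 ± 0.04 (adjusted p = 0.044). Without the 2 striatum libraries that stand apart in the mean of the 33 genes, Gjb1, Ppp1r14a and Lpar1 were not called (adjusted p = 0.129, 0.0717 and 0.112). Both are high knock-in libraries picked by that mean, so leaving them out tends to lower the knock-in estimates. That fit is no independent check.

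Several defining genes did not pass in striatum. Mbp had 2100.1 to 3303 CPM with a median of 2736 in knock-in animals, against 2412 to 3307 CPM with a median of 2919 without the knock-in (-0.08 ± 0.04, adjusted p = 0.113). Mog and Mag, proteins of the outermost and innermost myelin layers, changed by 0.04 ± 0.04 and 0.04 ± 0.03, Cnp by 0.00 ± 0.04, Sox10 by -0.01 ± 0.04, Myrf by 0.01 ± 0.04, Olig2 by 0.08 ± 0.04, Bcas1 by -0.03 ± 0.05, Pdgfra by -0.02 ± 0.02 and Cspg4 by -0.02 ± 0.03, with adjusted p between 0.114 and 0.991. By role, 4 of 13 myelin protein genes, 4 of 6 enzymes and carriers, 1 of 4 junction and receptor genes and 1 of 6 transcription factors fell, while 1, 0, 2 and 1 rose. In animals with codes below 16 alone, 9 of the 33 genes were called and 8 of these were among the 15. The shared 8 were Car2, Mal, Mobp, Ugt8a, Tspan2, Ppp1r14a, Olig1 and Enpp6. No Pms1 null animal has such a code, so that fit compared the knock-in only on the Pms1 wild-type and Pms1 het backgrounds. The share of all genes called in that fit is not given here, so its count of 9 cannot be set against one.

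**Figure D2:**
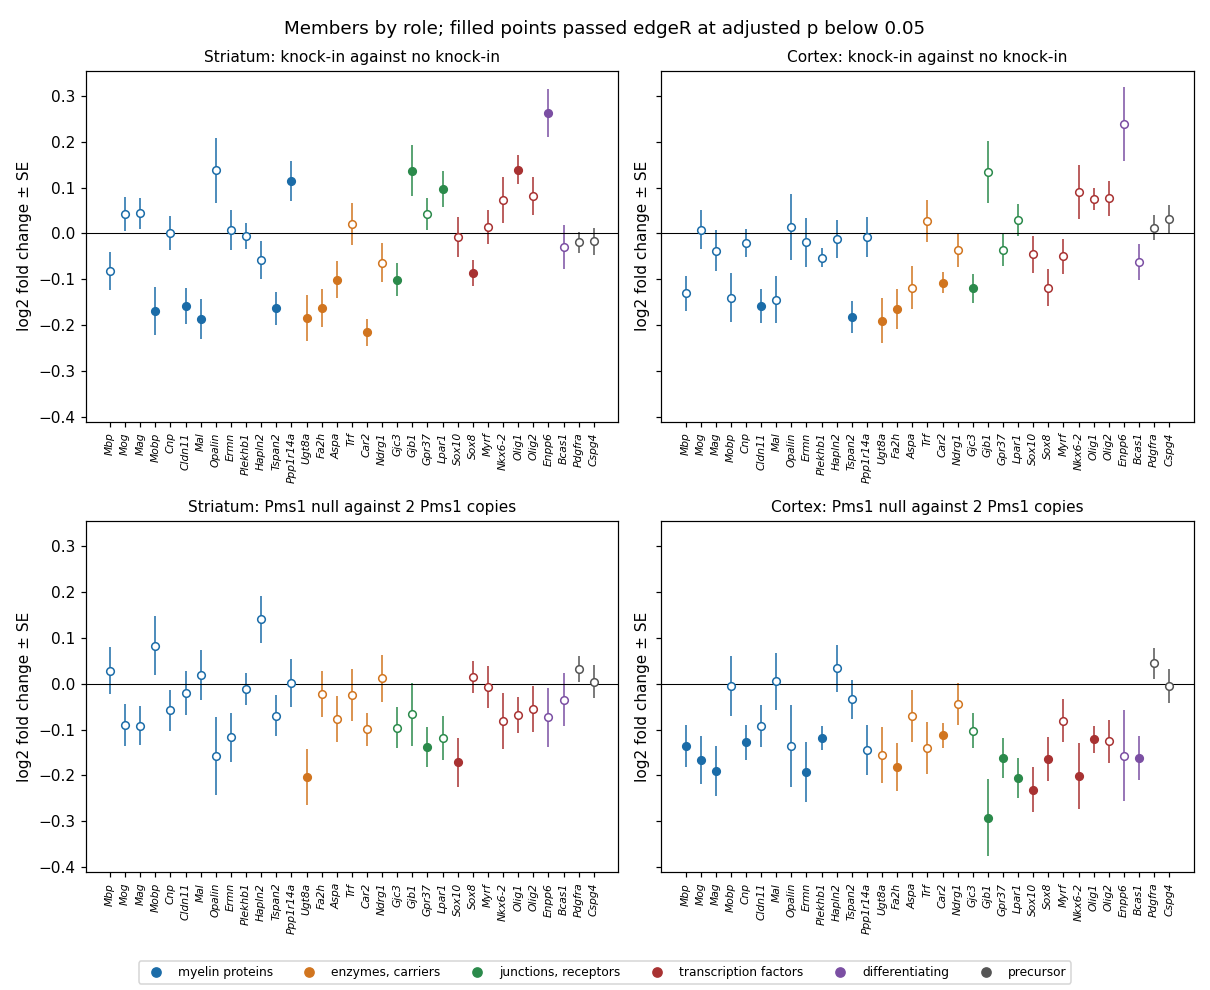
Log2 fold change ± SE (edgeR) of each of the 33 genes, coloured by role, for knock-in against no knock-in (24 against 24) and for Pms1 null against both Pms1 copies (16 against 16) in each tissue; filled points passed at an adjusted p below 0.05. Knock-in striatum has filled points on both sides of 0 (Enpp6 at 0.26, Car2 at -0.22), while all 16 filled points of the Pms1 null cortex lie below 0.

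The comparison was repeated within each Pms1 genotype, 8 animals against 8. For Q140 against WT, 3 of 33 genes passed in striatum, where 31.3% of all genes did. Car2 had 109 to 142 CPM with a median of 124 in Q140, against 138 to 164 CPM with a median of 153 in WT (-0.28 ± 0.05, adjusted p = 2.38e-05). Olig1 had 79.0 to 98.5 CPM with a median of 86.9 in Q140, against 70.2 to 85.4 CPM with a median of 75.9 in WT (0.19 ± 0.05, adjusted p = 0.00707). Enpp6 had 10.7 to 16.3 CPM with a median of 13.7 in Q140, against 8.11 to 13.2 CPM with a median of 11.3 in WT (0.33 ± 0.09, adjusted p = 0.00325). The ranges of Car2 shared only the stretch between 138 and 142 CPM, and those of Olig1 and Enpp6 overlapped more widely. For Q140 Pms1 het against Pms1 het, 5 passed, where 24.9% of all genes did: Car2 (-0.24 ± 0.05), Ugt8a (-0.24 ± 0.09), Olig1 (0.16 ± 0.06), Ppp1r14a (0.22 ± 0.07) and Enpp6 (0.26 ± 0.09), with adjusted p = 0.000266, 0.0347, 0.0263, 0.0241 and 0.0314. Without the libraries that stand apart 2 of these 5 were still called, Car2 and Ugt8a, and Olig1, Ppp1r14a and Enpp6 were not. The Q140 Pms1 het library left out was picked for its high mean of the 33 genes, so this is no independent check. For Q140 Pms1 null against Pms1 null, 4 passed and all 4 were lower, where 11.1% of all genes passed and 5.47% were lower.

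The 4 genes called on the Pms1 null background were Cldn11, Tspan2, Mal and Fa2h. Cldn11 had 104 to 137 CPM with a median of 122 in Q140 Pms1 null, against 119 to 172 CPM with a median of 146 in Pms1 null (-0.27 ± 0.07, adjusted p = 0.00554). Tspan2 changed by -0.25 ± 0.06 (adjusted p = 0.00568), Mal by -0.28 ± 0.08 (adjusted p = 0.0117) and Fa2h by -0.22 ± 0.07 (adjusted p = 0.0399). The differences between the backgrounds were themselves tested. The knock-in effect on a Pms1 null and on a Pms1 wild-type background differed for 0 of the 33 genes in striatum (4 at an unadjusted p below 0.05), where 5.05% of all genes differed, and that on a Pms1 het background for 0 (1 unadjusted), where 0% of all genes did. Over all 18890 genes tested, 3614 had an unadjusted p below 0.05 for the Pms1 null background and 1619 for the Pms1 het background. The lists of called genes on the 3 backgrounds are therefore not shown to differ. The plot of CPM by genotype shows the 6 genes side by side on each background.

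**Figure D3:**
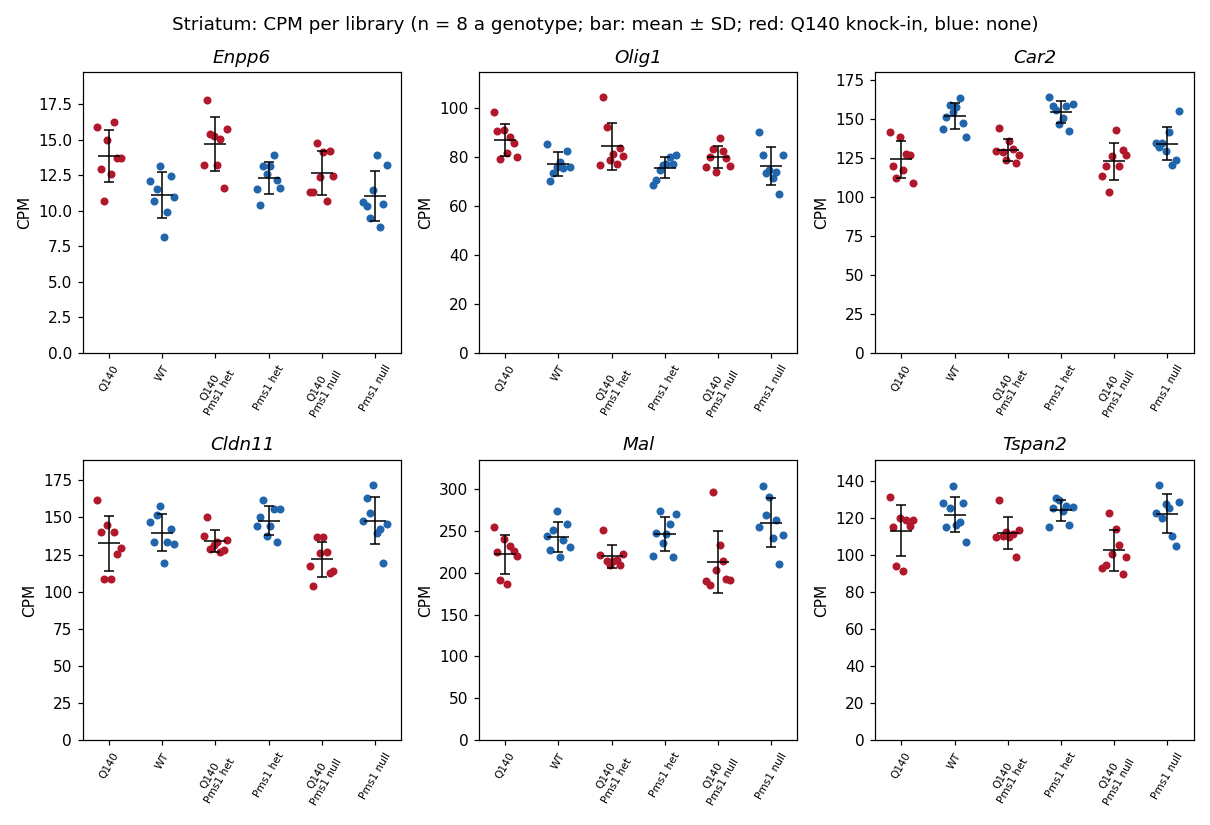
CPM of Enpp6, Olig1, Car2, Cldn11, Mal and Tspan2 in each striatum library of the 6 genotypes (8 per genotype), each knock-in genotype left of its own Pms1 genotype; black bars are means ± SD. Car2 medians are 124 CPM in Q140 and 153 CPM in WT, and Enpp6 medians are 13.7 and 11.3 CPM, with some overlap in both.

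Other cell types moved with the knock-in in striatum. All 8 of 8 markers of medium spiny neurons, the main striatal cells and the ones most affected in Huntington's disease, were lower, and their summed level was 6696 to 8860 CPM in knock-in striatum, against 9601 to 10949.9 CPM without it. The groups did not overlap. Of 8 microglial markers 6 were lower (summed level 359 to 433 CPM, against 372 to 429 CPM), of 8 endothelial and mural markers 4 were lower (296 to 372 CPM, against 326 to 377 CPM), of 8 astrocyte markers 3 were lower and 1 higher (3159 to 3652 CPM, against 3395 to 3918 CPM), and of 3 measured Schwann markers 2 were lower. None of these markers was at 0 in either group. The 33 genes summed to 5212 to 7646 CPM with a median of 6209 in knock-in striatum, against 5644 to 7416 CPM with a median of 6634 without it. The part of these shifts in the values of the 33 genes was not tested. With limma on log2(FPKM + 0.1), which changes both the test and the scaling, 16 of the 33 were called, 9 higher and 7 lower, and the share of higher genes among all called genes was 77.5%, against 53.0% with edgeR.

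The rest of the pathway in knock-in striatum also split. Of 39 other genes of myelin and mature oligodendrocytes 7 were higher, led by Zfp488 (0.23), Tmem125 (0.16) and Edil3 (0.14), and 5 lower, among them Efnb3 (-0.16) and Cryab (-0.10). Of 25 genes of myelin lipid synthesis 5 were higher (Plpp2 0.22, Elovl6 0.11, Dhcr7 0.11 the most) and 4 lower, among them Srebf2 (-0.14) and Elovl1 (-0.08). Of 29 precursor genes 4 were higher (Nkx2-2 0.19, Lhfpl3 0.16, Frmd4a 0.06) and 6 lower (Cacng4 -0.26, Vcan -0.16, Neu4 -0.13). Of 25 growth factors and receptors 0 were higher and 7 lower (Jag1 -0.47, Rtn4r -0.46, Rxrg -0.39), and of 14 node and paranode genes 2 were higher (Cntn1 0.08, Tnr 0.05) and 6 lower (Cntnap1 -0.19, Vcan -0.16, Ank3 -0.08). All values are log2 changes with adjusted p below 0.05; over all genes tested 22.5% were higher and 20.0% lower.

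In cortex the knock-in changed few genes, and 6 of the 33 were among them. All 6 were lower in knock-in cortex, where 1.03% of 18711 tested genes were lower and 1.73% were called in all. Tspan2 had 38.5 to 59.7 CPM with a median of 50.5 in knock-in cortex, against 49.7 to 65.9 CPM with a median of 56.5 without the knock-in (-0.18 ± 0.04, adjusted p = 0.00378). Ugt8a had 12.8 to 27.4 CPM with a median of 20.1, against 19.7 to 29.6 CPM with a median of 23.6 (-0.19 ± 0.05, adjusted p = 0.0367). In both, the lowest knock-in libraries lay below the whole range of the other animals, and the ranges overlapped above that. Car2 had 81.0 to 104 CPM with a median of 99.6, against 88.6 to 123 CPM with a median of 107 (-0.11 ± 0.02, adjusted p = 0.00763). Cldn11 changed by -0.16 ± 0.04 (adjusted p = 0.0218), Fa2h by -0.17 ± 0.04 (adjusted p = 0.0326) and Gjc3 by -0.12 ± 0.03 (adjusted p = 0.0368). Without the libraries that stand apart 4 of these 6 were still called, and Ugt8a and Gjc3 were not. Those libraries were picked by the mean of the 33 genes itself, a low one with the knock-in and a high one without. That fit is thus no independent check.

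These 6 genes were all among the 10 that were lower in knock-in striatum, so the overlap was 6 of 6 in cortex and 6 of 10 in striatum; the tissues share their animals. Mbp just missed the threshold in cortex, at 641 to 1100.0 CPM with a median of 871 in knock-in cortex, against 828.8 to 1209 CPM with a median of 979 (-0.13 ± 0.04, adjusted p = 0.0569). Enpp6 and Olig1, which rose in striatum, had cortical changes of 0.24 ± 0.08 (adjusted p = 0.117) and 0.08 ± 0.02 (adjusted p = 0.0917). Mog changed by 0.01 ± 0.04, Mag by -0.04 ± 0.04, Cnp by -0.02 ± 0.03, Sox10 by -0.05 ± 0.04, Myrf by -0.05 ± 0.04, Olig2 by 0.08 ± 0.04, Bcas1 by -0.06 ± 0.04, Pdgfra by 0.01 ± 0.03 and Cspg4 by 0.03 ± 0.03, and none passed. In animals with codes below 16 alone, which leave out the Pms1 null background, only Car2 was called. The share of all genes called in that fit is not given here, so the lower count does not show whether all genes dropped alike. The estimates of the other 5 there lay between -0.24 for Ugt8a and -0.16 for Gjc3, with adjusted p between 0.0705 and 0.257.

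Of the other myelin genes in knock-in cortex 0 of 39 rose and 3 fell, among them Cryab (-0.13) and Qdpr (-0.10). Of the growth factors, Bdnf fell (-0.27). No gene of the lipid synthesis, precursor and node lists passed in edgeR's test. Of the markers of other cells 2 of 8 microglial genes were higher (Cx3cr1 0.10, P2ry12 0.12; summed level 284 to 340.3 CPM in knock-in cortex, against 268 to 317 CPM) and 1 neuronal marker; 0 of 8 astrocyte and 0 of 8 endothelial and mural markers passed. Their part in the result was not tested. The 33 genes summed to 1760 to 2636 CPM with a median of 2245 in knock-in cortex, against 2174 to 2794 CPM with a median of 2442.

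Within single Pms1 genotypes the cortical knock-in effect reached 1 of the 33 genes. For Q140 Pms1 het against Pms1 het, Gjc3 had 20.0 to 28.5 CPM with a median of 23.9 in Q140 Pms1 het, against 28.0 to 32.4 CPM with a median of 29.0 in Pms1 het (-0.25 ± 0.06, adjusted p = 0.0333), where 0.112% of all genes passed. DESeq2 called 5 of the 33. Without the libraries that stand apart edgeR did not call Gjc3 (adjusted p = 0.075). Those are the lowest Q140 Pms1 het and the highest Pms1 het library in the mean of the 33 genes. Leaving them out tends to narrow this difference, so that fit is no independent check. For Q140 against WT edgeR called 0 (5 at an unadjusted p below 0.05, 0 by DESeq2), where 0.0428% of all genes passed. For Q140 Pms1 null against Pms1 null it called 0 (9 unadjusted, 0 by DESeq2), where again 0.0428% passed. Over all 18711 genes 1369 had an unadjusted p below 0.05 for Q140 against WT and 1399 for Q140 Pms1 null against Pms1 null. Set against the Pms1 wild-type background, the knock-in effect on the Pms1 het background differed for 0 of the 33 (9 unadjusted). On the Pms1 null background it also differed for 0 (2 unadjusted). Both tests called 0% of all genes, with 1525 and 1020 of 18711 genes in turn at an unadjusted p below 0.05.

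The knock-in effect was tested for a difference between striatum and cortex, 48 libraries of each, and passed for Car2 alone among the 33, where 22.8% of all genes differed. The knock-in effect on Car2 was lower by 0.11 on the log2 scale in striatum than in cortex (adjusted p = 0.0211, and 0.000752 with the animal as a replicate block). The other 32 genes are not shown to respond differently in the tissues.

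Loss of Pms1 was compared over both Htt genotypes, 16 Pms1 null animals with or without the knock-in against 16 animals with both Pms1 copies. In cortex 16 of the 33 genes passed and all 16 were lower in Pms1 null animals, where 7.09% of all genes were lower and 15.9% called in all. The estimate was below 0 for 30 of the 33, and the median log2 change was -0.14, against 0.00 over all genes. All 16 Pms1 null animals have a late code, as do 5 of the 16 with both copies, so over all animals Pms1 genotype and what the code stands for cannot be told apart.

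Transcription factors, receptors and myelin genes were among those that fell in Pms1 null cortex, and neither precursor gene was. Sox10, the factor that induces Myrf, had 15.3 to 23.9 CPM with a median of 19.7 in Pms1 null cortex, against 19.9 to 26.4 CPM with a median of 23.3 with both copies (-0.23 ± 0.05, adjusted p = 0.0013). Lpar1 had 9.62 to 13.6 CPM with a median of 12.1, against 10.7 to 15.7 CPM with a median of 13.9 (-0.21 ± 0.04, adjusted p = 0.000857). Plekhb1 had 107 to 141 CPM with a median of 126, against 125 to 152 CPM with a median of 139 (-0.12 ± 0.03, adjusted p = 0.00116). In each of these the lowest Pms1 null libraries lay below every library with both copies, and the rest of the ranges overlapped. Olig1 had 46.1 to 62.0 CPM with a median of 53.5, against 51.5 to 64.0 CPM with a median of 57.3 (-0.12 ± 0.03, adjusted p = 0.00332). Of the other transcription factors Nkx6-2 changed by -0.20 ± 0.07 and Sox8 by -0.16 ± 0.05 (adjusted p = 0.0458 and 0.016), while Olig2 (-0.13 ± 0.05, adjusted p = 0.0587) and Myrf (-0.08 ± 0.05, adjusted p = 0.246) did not pass.

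Among the myelin protein genes Mag had 53.5 to 72.9 CPM with a median of 63.7 in Pms1 null cortex, against 59.6 to 85.4 CPM with a median of 72.3 (-0.19 ± 0.05, adjusted p = 0.0132). Mbp had 703 to 1006 CPM with a median of 865, against 819.9 to 1100.1 CPM with a median of 969.9 (-0.14 ± 0.05, adjusted p = 0.0359). Both groups share the middle of these ranges. Mog changed by -0.17 ± 0.05, Ermn by -0.19 ± 0.07 and Cnp, whose promoter window is given above, by -0.13 ± 0.04 (adjusted p = 0.0236, 0.037 and 0.0143). Mobp (0.00 ± 0.07), Mal (0.01 ± 0.06), Tspan2 (-0.03 ± 0.04), Hapln2 (0.03 ± 0.05) and Cldn11 (-0.09 ± 0.05) did not pass. Mal, Tspan2 and Cldn11 are among the genes that fell in knock-in striatum. Of the remaining roles Gjb1 changed by -0.29 ± 0.08, Gpr37, an orphan receptor of oligodendrocytes, by -0.16 ± 0.04, Fa2h by -0.18 ± 0.05, Car2 by -0.11 ± 0.03 and Bcas1 by -0.16 ± 0.05 (adjusted p = 0.0125, 0.00746, 0.0132, 0.00366 and 0.0157). Enpp6 (-0.16 ± 0.10), Pdgfra (0.04 ± 0.03) and Cspg4 (-0.01 ± 0.04) did not pass.

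**Figure D4:**
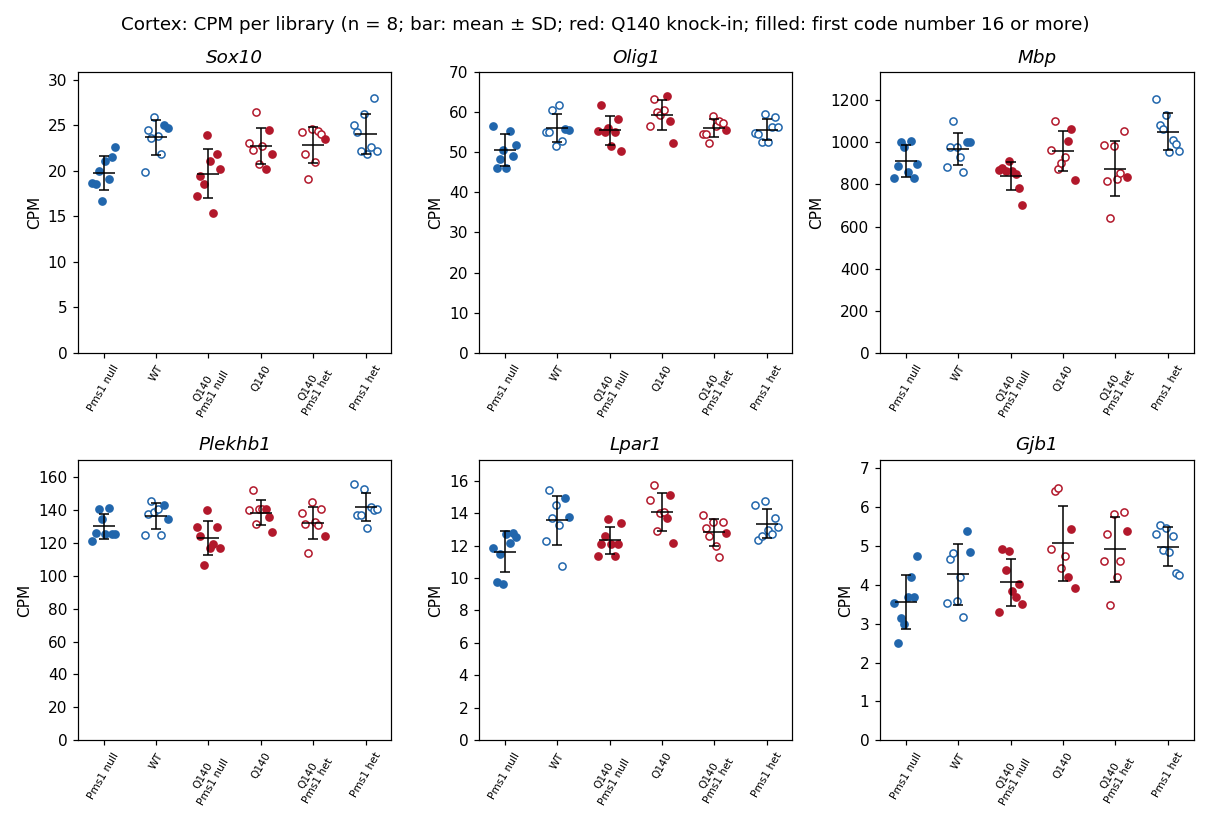
CPM of Sox10, Olig1, Mbp, Plekhb1, Lpar1 and Gjb1 in each cortex library of the 6 genotypes (8 per genotype); red points carry the knock-in, filled points have a late animal code, and black bars are means ± SD. Sox10 medians are 19.7 CPM over Pms1 null animals and 23.3 CPM over animals with both Pms1 copies, and every Pms1 null point is filled.

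Among late-coded animals alone, 16 Pms1 null against 5 with both Pms1 copies, 6 of the 33 genes passed in cortex, and 5 of these were among the 16: Cnp (-0.23), Gpr37 (-0.24), Lpar1 (-0.23), Mag (-0.34) and Mog (-0.30). Of the 11 that did not pass there, Sox10 had an estimate of -0.25 (adjusted p = 0.0809), Gjb1 of -0.35 (adjusted p = 0.0809), Olig1 of -0.10 (adjusted p = 0.3) and Car2 of -0.05 (adjusted p = 0.636). With the mean level of the other myelin genes as a term in the model, a setting chosen after the data were seen, 1 of the 33 genes was called. After genotype and sex means were removed, that level had a correlation of 0.92 with the mean of the 33 genes in cortex. The term thus takes up much of what is tested, and this fit is no independent check. The shares of all genes called in these fits are not given here, so the lower counts do not show whether fewer of all genes were called too.

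In Pms1 null against WT cortex, 8 against 8, 5 of the 33 genes passed and all were lower, where 4.26% of all genes were lower and 9.58% called. Sox10 had 16.7 to 22.6 CPM with a median of 19.6 in Pms1 null, against 19.9 to 25.8 CPM with a median of 24.2 in WT (-0.26 ± 0.07, adjusted p = 0.0164). Lpar1 changed by -0.22 ± 0.06, Olig1 by -0.15 ± 0.04, Olig2 by -0.21 ± 0.07 and Car2 by -0.16 ± 0.04 (adjusted p = 0.0152, 0.0187, 0.0365 and 0.00667). The Olig genes and Sox10, which set the lineage, thus fell with Car2 and Lpar1, while no myelin protein gene passed in this smaller comparison. Among late-coded animals, with 2 WT, 1 of these 5 genes was called, and the share of all genes called there is not given. For Q140 Pms1 null against Q140 cortex edgeR called 0 of the 33, where 0.0107% of all genes passed, and DESeq2 called 1. At an unadjusted p below 0.05 edgeR had 17 of the 33, and 2713 of all 18711 genes. Of the 33 estimates 31 were below 0.

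Other genes of the pathway in Pms1 null cortex gave 12 lower and 2 higher of 39 other myelin genes, with Nipal4 (-0.36), Ninj2 (-0.35) and Insc (-0.30) the largest downward and Lgi3 (0.11) and Abca2 (0.05) higher. Of the growth factors and receptors 6 of 25 fell, led by Bdnf (-0.41), Lingo1 (-0.16) and Gpr17 (-0.16), and 2 rose, Erbb4 (0.13) and Lifr (0.11). Of 29 precursor genes 4 fell, among them Rlbp1 (-0.17) and Gpr17 (-0.16), and 0 rose. Of 25 lipid synthesis genes 3 fell (Elovl5 -0.09, Srebf2 -0.08, Scd2 -0.06) and 0 rose, and of 14 node genes Bcan rose (0.09). Of the markers of other cells 3 of 8 endothelial and mural genes were lower (Cldn5 -0.28, Flt1 -0.14, Rgs5 -0.10; summed level 292 to 362 CPM in Pms1 null cortex, against 321 to 388 CPM), 2 of 8 glutamatergic (among them Neurod6 at -0.24; 1921 to 2240.2 CPM, against 1884 to 2163 CPM), 1 of 8 astrocytic (Aqp4 -0.12; 4043 to 4731 CPM, against 4031 to 4609 CPM) and 1 of 8 of medium spiny neurons (Penk -0.20; 244 to 280.2 CPM, against 238 to 289 CPM), and 0 of 8 microglial markers passed. Their part in the result was not tested. The 33 genes summed to 1903 to 2549 CPM with a median of 2209 in Pms1 null cortex, against 2170.3 to 2651 CPM with a median of 2418.

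In striatum loss of Pms1 reached 3 of the 33 genes, all lower, where 4.43% of all genes were lower and 10.0% called. Ugt8a had 32.4 to 61.0 CPM with a median of 50.2 in Pms1 null striatum, against 45.0 to 69.0 CPM with a median of 57.6 with both copies (-0.20 ± 0.06, adjusted p = 0.0267). Sox10 had 33.5 to 51.7 CPM with a median of 44.2, against 41.8 to 59.1 CPM with a median of 48.1 (-0.17 ± 0.05, adjusted p = 0.031), and Gpr37 changed by -0.14 ± 0.04 (adjusted p = 0.033). Sox10 and Gpr37 were thus lower in both tissues of the same animals. Mbp (0.03 ± 0.05), Mog (-0.09 ± 0.05), Mag (-0.09 ± 0.04), Cnp (-0.06 ± 0.04), Olig2 (-0.05 ± 0.05), Myrf (-0.01 ± 0.05), Bcas1 (-0.03 ± 0.06), Enpp6 (-0.07 ± 0.06), Pdgfra (0.03 ± 0.03) and Cspg4 (0.00 ± 0.04) did not pass. In late-coded animals alone 0 of the 33 passed, with estimates of -0.18 for Ugt8a, -0.20 for Sox10 and -0.14 for Gpr37 (adjusted p = 0.488, 0.283 and 0.219). The share of all genes called in that fit is not given here.

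For Pms1 null against WT striatum 3 of the 33 passed, where 7.91% of all genes did. Hapln2, a link protein of the nodal matrix, was higher, at 35.9 to 51.7 CPM with a median of 45.3 in Pms1 null, against 30.9 to 42.1 CPM with a median of 36.9 in WT (0.26 ± 0.07, adjusted p = 0.0197). Sox10 changed by -0.24 ± 0.08 (adjusted p = 0.0435) and Car2 by -0.18 ± 0.05 (adjusted p = 0.026). When Q140 Pms1 null was set against Q140 in striatum, edgeR called 0 (6 at an unadjusted p below 0.05, 0 by DESeq2), where 7.10% of all genes passed. Unadjusted, 3647 of all 18890 genes passed there. In Pms1 null striatum 6 of 8 markers of medium spiny neurons were higher (summed level 7609 to 10949.9 CPM, against 6696 to 10829 CPM) and 1 of 8 endothelial and mural markers lower; their part was not tested. Of the other myelin genes 1 of 39 rose, Carns1 (0.14), and 6 fell, among them Insc (-0.19) and Pex5l (-0.14). Of the growth factors and receptors Gpr17 (-0.20), Erbb3 (-0.17) and Fgfr2 (-0.13) fell, of the lipid genes 2 fell, among them Elovl6 (-0.10), and Fdft1 (0.16) rose, of the precursor genes Gpr17 and Tnr fell, and of the node genes Tnr (-0.11) and Cntn1 (-0.06) fell. The effect of Pms1 loss differed between striatum and cortex for 0 of the 33 genes (5 unadjusted), where 2.39% of all genes differed. Unadjusted, 3048 of all 19723 genes differed. That fit has no term for the animal. With the animal as a replicate block 1 of the 33 passed, and the share of all genes called there is not given.

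With a single Pms1 copy none of the 33 genes passed edgeR's test. For Pms1 het against WT 0 were called in striatum (1 at an unadjusted p below 0.05) and 0 in cortex (3 unadjusted), and for Q140 Pms1 het against Q140 0 were called in striatum (0 unadjusted) and 0 in cortex (9 unadjusted); in each of these 4 comparisons 0% of all genes were called. Over all genes, Pms1 het against WT had 1882 of 18890 in striatum and 1938 of 18711 in cortex at an unadjusted p below 0.05. For Q140 Pms1 het against Q140 the numbers were 1026 of 18890 and 1065 of 18711. No other tool was run on these 4 comparisons.

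Males and females, 24 of each, differed for 3 of the 33 genes in cortex, all lower in males, where 2.61% of all genes were lower and 5.36% called. Plekhb1 had 107 to 153 CPM with a median of 126 in males, against 119 to 156 CPM with a median of 140.3 in females (-0.11 ± 0.02, adjusted p = 0.000459). Bcas1 changed by -0.15 ± 0.04 (adjusted p = 0.0201) and Cldn11 by -0.14 ± 0.04 (adjusted p = 0.0244). Every first number of the animal code held animals of a single sex, so sex is nested in that number. With the number as a random term in limma voom, 1 of the 3 was called, Plekhb1, and Bcas1 and Cldn11 were not. In striatum edgeR called 0 (4 at an unadjusted p below 0.05, 1 by DESeq2), where 6.16% of all genes were called. Unadjusted, 4044 of all 18890 genes passed there.

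Apart from genotype and sex, the genes varied together from animal to animal. After the mean of each genotype and sex was removed, the median Pearson correlation over the 528 pairs of genes was 0.52 in striatum, with 515 pairs above 0 and 272 above 0.5, and 0.37 in cortex, with 445 above 0 and 169 above 0.5 (48 libraries each; the pairs share libraries, so the values are descriptions). Mobp with Mal had the highest correlation in striatum, 0.95, followed by Mbp with Cldn11 at 0.92, Cldn11 with Tspan2 at 0.91 and Mog with Cnp at 0.90. The lowest in striatum was Car2 with Pdgfra, -0.19, and in cortex Opalin with Ndrg1, -0.52.

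The median correlation of a gene with the other 32 in striatum was 0.71 for Cnp and Plekhb1, 0.70 for Mag and 0.68 for Mog, against 0.16 for Pdgfra, 0.20 for Cspg4, 0.28 for Olig2 and 0.31 for Sox8. In cortex Pdgfra (-0.18) and Sox8 (-0.10) were below 0. Over the 48 libraries of a tissue the mean of the 33 genes had a correlation with the mean of 39 other myelin genes of 0.98 in striatum and 0.92 in cortex. Its correlation with the mean of 29 other genes of precursors and committed precursors was 0.54 in striatum and -0.04 in cortex. Its correlation with astrocyte markers was 0.66 in striatum and -0.30 in cortex, with microglial markers 0.49 and 0.27, with markers of medium spiny neurons -0.36 and 0.05, and with the log2 total count of the library 0.06 and -0.29.

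**Figure D5:**
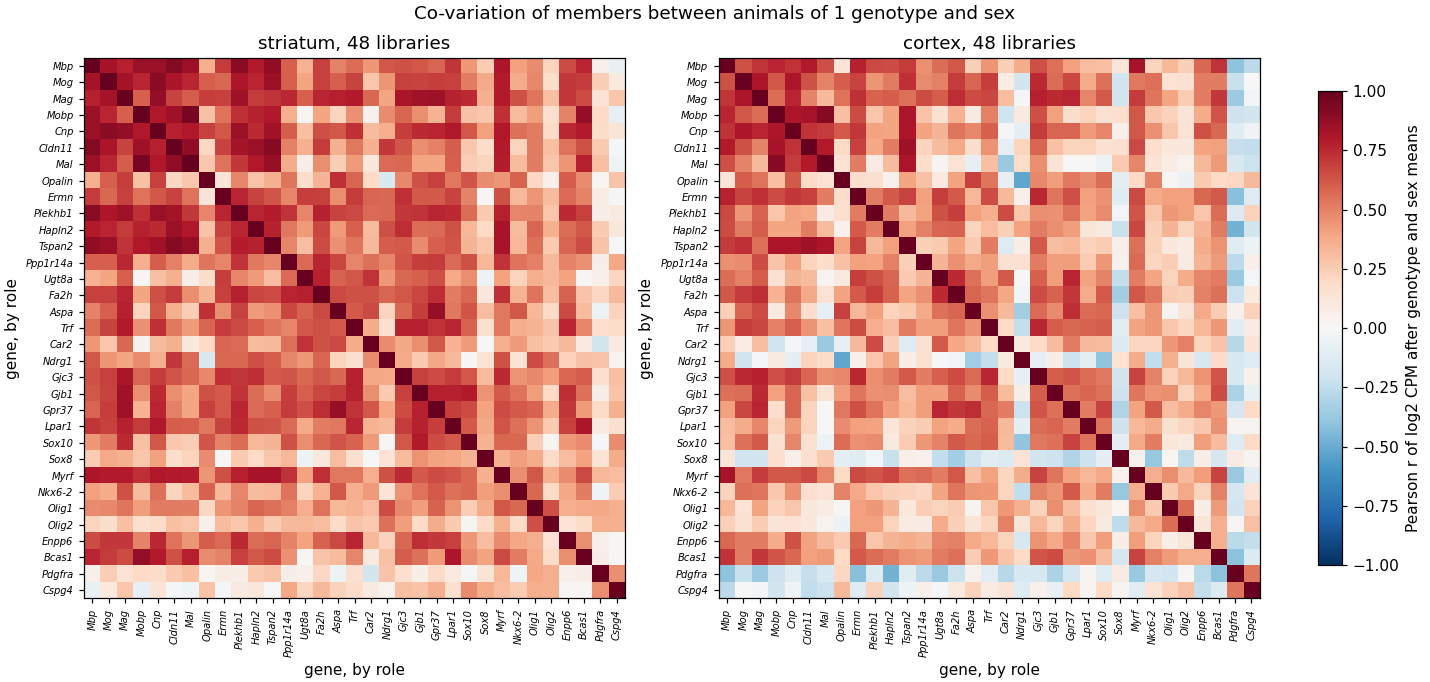
Pearson correlation between the 33 genes over the 48 libraries of each tissue, after genotype and sex means were removed from log2 CPM; red is positive and blue negative. The myelin genes form a red block in both tissues (median over all pairs 0.52 in striatum and 0.37 in cortex), and Pdgfra and Cspg4, with Sox8 and Ndrg1 in cortex, lie outside it.

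Between the tissues of an animal the same gene followed itself only loosely. Over 48 animals 29 of the 33 genes had a correlation above 0 between striatum and cortex, with a median of 0.24. Opalin, a glycoprotein of oligodendrocytes, had the highest, 0.71, then Ndrg1, a myelin-associated cytosolic protein, at 0.58 and the iron carrier Trf at 0.55, and Plekhb1 had the lowest, -0.16. The genes also varied more between animals than most genes of like level: the biological coefficient of variation lay between 5.27% for Pdgfra and 16.5% for Opalin in striatum and between 5.06% for Plekhb1 and 17.2% for Enpp6 in cortex. It exceeded the median of genes of like level for 33 of 33 genes in each tissue, where those medians lay between 4.01% and 6.29% in striatum and between 4.16% and 9.92% in cortex. The excess was slight for Ppp1r14a in cortex, at 8.25% against 8.16%.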

How the data were processed

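Read counts per gene were deposited for 48 striatum and 48 cortex libraries of the same animals; the labels name a TruSeq stranded kit and RNeasy RNA. STAR 2.7.5c, SAMtools 1.10, HTSeq 0.12.3 and GRCm38 (mm10) are named in the submitters' processing notes; the sources used here give neither the annotation release nor the strand setting. The deposited FPKM values are the same counts rescaled by the authors (0 of 1419739 values with at least 50 counts departed by over 0.1%). 126 gene names occur more than once in the table, and 48435 genes matched GENCODE M21 by identifier.

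Counts were fitted with edgeR 4.0.16 (quasi-likelihood test, TMM scaling, genotype and sex terms, limma 3.58.1, R 4.3.3) in each tissue, 18890 genes in striatum and 18711 in cortex, and over both tissues (19723 genes); p-values were adjusted by Benjamini-Hochberg over all genes tested. TMM factors lay between 0.956 and 1.06. SEs are the log2 change divided by the square root of the F statistic. Log2 CPM for correlations between genes carry a prior count of 2. Alternatives were DESeq2 1.42.0, RLE factors, no filter, limma on log2(FPKM + 0.1) or log2(FPKM + 1), the animal as a block and others given below. Replicates are separate animals.

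In simulated Q140 against WT striatum counts (18890 genes) the same test recovered 95 of 100 genes changed by 0.5 on the log2 scale. It recovered 54 of 100 changed by 0.2, made 9 false calls, and called 0 in a contrast with no change. The changed genes were drawn from all but the weakest genes, each with its own spread. The 33 genes vary more, with a median biological coefficient of variation of 9.52% in striatum, against 4.25% for genes of like level. Recovery of changes in the 33 genes was not simulated. Both tissues come from the same animals, which pairs them: over 48 animals the median correlation of an animal's deviations in the tissues was 0.31, the lowest 0.0668, 47 were above 0.1, and 42 correlated best with their own animal.

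The 33 genes, the pathway lists and the marker lists were chosen with earlier results of these data known. Genes are named where called in a genotype comparison, and Mbp, Mog, Mag, Cnp, Olig2, Sox10, Myrf, Bcas1, Enpp6, Pdgfra and Cspg4 whatever their values; for tissue and sex the 5 with the largest change each way; for pathway lists up to 3 each way; the rest by counts. Some genes of these lists are counted but their values are not reported here. The 3 Schwann markers tested are those that passed the filter.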

Additional observations from a re-analysis of the deposited data

Results flagged for a closer look

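Within each genotype and tissue, the 8 libraries were examined for a highest or lowest library far from the others. This was done for the summed level of the 33 genes and for single genes, 144 sets of values in all, and 13 had one. Chance flags about 1 in 20 such sets when they are independent. Here the genes vary together and the sum holds them, so 1 library can be flagged several times and the 13 cannot be set against that rate. Several came from striatum Q140 Pms1 het. There the highest library had 7410.4 CPM summed over the 33 genes (group median 6395), 245 CPM of Mag (203), 418 CPM of Cnp (341), 63.5 CPM of Sox10 (50.8) and 102 CPM of Myrf (77.6). In striatum Q140 Pms1 null the highest library had 281 CPM of Bcas1 (176).

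In cortex Pms1 het the highest library had 22.5 CPM of Mog (18.5), 19.1 CPM of Olig2 (15.5) and 34.9 CPM of Myrf (30.1). In cortex Q140 Pms1 het the lowest library had 11.8 CPM of Mog (18.6). In cortex Q140 the highest had 4.98 CPM of Enpp6 (2.99) and 51.4 CPM of Pdgfra (42.2), and in cortex Q140 Pms1 null the highest had 135 CPM of Cnp (111). Values in brackets are group medians. The pooled knock-in effect on Car2 differed between the tissues by -0.11 on the log2 scale (striatum minus cortex), the only 1 of the 33 genes for which that test passed.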

How the results depend on the processing

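Of the counts of genes called, those under RLE factors were all within 1.5 times the main count. None of the genes called among the 33 changed direction under the settings run for its comparison; direction was not followed for genes that were not called or for the pathway lists. The numbers below are counts among the 33 genes, each set against the main count. The share of all genes called under a setting is not given, so a changed count does not show whether all genes shifted alike.

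Under DESeq2 the cortex Q140 Pms1 het against Pms1 het comparison gave 5 (main 1), Q140 Pms1 null against Q140 cortex 1 (0), the striatum Pms1 null comparison over both Htt genotypes 5 (3) and striatum sex 1 (0). With no filter on low counts, Q140 Pms1 null against Q140 cortex gave 1 (0), cortex knock-in 3 (6), the striatum Pms1 null comparison over both Htt genotypes 1 (3) and striatum Q140 Pms1 het against Pms1 het 2 (5). With limma on log2(FPKM + 0.1) and on log2(FPKM + 1) alike, cortex Q140 Pms1 het against Pms1 het gave 0 (1), striatum Q140 Pms1 null against Q140 1 (0) and striatum sex 1 (0); Aspa, Gjc3 and Sox8 were not called in knock-in striatum. With log2(FPKM + 0.1) the share of higher genes among all genes called moved to 79.9% for striatum Q140 against WT (main 50.8%), 76.9% for Q140 Pms1 het against Pms1 het (51.5%), 70.7% for Q140 Pms1 null against Pms1 null (50.5%), 33.0% for striatum Pms1 null over both Htt genotypes (55.9%), 62.5% for striatum Pms1 null against WT (50.7%), 28.4% for striatum Q140 Pms1 null against Q140 (71.4%), 76.5% for striatum sex (46.2%) and 58.6% for cortex knock-in (40.4%), where 1 of the 33 was higher and 5 lower.

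With the animal as a replicate block the test of a tissue difference in the Pms1 null effect gave 1 (0); the replicate block changed no other count by over 1.5 times. Of the other settings, the pooled comparisons by animal code were chosen after the data were seen. So were the term for other myelin genes and the fits without the libraries that stand apart. In animals with codes of 16 or more, cortex Pms1 null gave 6 (16), striatum Pms1 null 0 (3) and striatum Pms1 null against WT 0 (3). In animals with codes below 16, cortex knock-in gave 1 (6) and striatum knock-in 9 (15). Fewer animals enter the fits by code. Those with codes below 16 hold no Pms1 null animals, so the knock-in was compared there on the Pms1 wild-type and Pms1 het backgrounds alone. With the level of other myelin genes as a term, counts were 3 for cortex Pms1 null against WT (5), 1 for cortex Pms1 null (16), 2 for cortex Q140 Pms1 het against Pms1 het (1), 6 for cortex sex (3), 6 for striatum Pms1 null against WT (3), 13 for striatum Q140 Pms1 het against Pms1 het (5), 13 for striatum Q140 Pms1 null against Pms1 null (4), 8 for striatum Q140 against WT (3) and 4 for striatum sex (0). With the first code number as a random term in limma voom, cortex Q140 Pms1 het against Pms1 het gave 0 (1), cortex sex 1 (3) and striatum Q140 Pms1 het against Pms1 het 3 (5). Without the libraries that stand apart, cortex Pms1 null against WT gave 8 (5), cortex Q140 Pms1 het against Pms1 het 0 (1), Q140 Pms1 null against Q140 cortex 1 (0) and striatum Q140 against WT 5 (3). The cause of these shifts was not tested.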
